A study of Hydra vulgaris with 113 samples.

Results

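Among the 33820 gene models of the Hydra vulgaris RNA-seq table, 26 had at least 2-fold more RNA in foot regenerates than in head regenerates at both 8 h and 12 h after amputation, while the sides differed by less than 2-fold at 0 h. These folds are of the mean level plus a small constant, as given below. Members were chosen by their levels in untreated polyps. CPM is the count of a gene model per 1 M counts of its library, and the level L was the log2 of the mean CPM of 3 libraries plus 0.5. Of the gene models, 15635 averaged at least 1 CPM in untreated 8 h foot regenerates, and a member had to be among these. Members then had a foot minus head L of at least 1 at 8 h and at 12 h and a difference below 1 in size at 0 h. Differences below are foot minus head, so that a positive value means more RNA in the foot regenerate. The untreated 0, 8 and 12 h libraries, 18 in all, therefore chose the members, and the members' differences between sides at these times are given as a description with no test. The untreated 0 h libraries also serve below as the baseline of the 3 h change within a side, a contrast that the rule did not use.

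Hydra is a freshwater polyp whose body column carries a head with tentacles at the upper (oral) end and a foot, which ends in a mucus-secreting basal disc, at the lower (aboral) end. A column cut across the middle regrows a head on the lower piece and a foot on the upper piece, so that the cut faces start from neighbouring tissue and take opposite fates. Canonical Wnt signalling works through β-catenin, which enters the nucleus and acts with TCF proteins on target genes, and in Hydra it is known for its role in the head organizer. iCRT14 is a small molecule that inhibits the interaction of β-catenin with TCF. By its title, the study asked which fate injury sets off by default. Gene models carry identifiers only, and none of them matched an entry of the RefSeq gene table used here, so that no member could be given a name or a function. For the same reason the tissue could not be checked against markers of foot, head or any cell type.

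The polyps were of strain 105. Tips of foot and head regenerates were collected in iCRT14 at 0, 8 and 12 h and untreated at 0, 3, 8 and 12 h, with 3 libraries in each of the 14 groups. Polyps in the inhibitor were kept at 5 µM, starting 2 h ahead of the cut and ending with collection, which makes the exposure 2 h at 0 h, 10 h at 8 h and 14 h at 12 h. Each library pooled about 30 tips, and the design text calls the libraries of a group biological replicates without saying that they came from separate cultures. P-values therefore measure the spread between libraries. Unless another fit is named, that spread was estimated for each gene model over all 42 libraries of both kits together, not from the libraries compared alone. Library totals ran from 13.46 M to 44.13 M counts (median 19.04 M), so that 3 counts, taken as the detection floor, corresponded to 0.068 to 0.223 CPM, a limit that covers counting error only. The TruSeq kit was used for the untreated 0, 3 and 8 h groups (18 libraries) and the KAPA kit for the untreated 12 h groups and every iCRT14 group (24 libraries). Foot and head libraries of the same time and treatment always shared a kit, but iCRT14 and untreated libraries at 0 h and at 8 h did not. Replicates scattered more with KAPA: the SD of log2 CPM within a group had a median over gene models of 0.187 to 0.377 in KAPA groups and 0.136 to 0.177 in TruSeq groups.

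The members had modest levels in every group and were not confined to the foot. Over the 26, the median of the mean CPM was 5.06, 7.90, 6.88 and 8.25 in untreated foot regenerates at 0, 3, 8 and 12 h, and 4.17, 4.68, 2.64 and 1.66 in untreated head regenerates at the same times. At least 1 CPM was reached by 26 members in the foot and by 21 in the head at 8 h, and by 26 in the foot and 16 in the head at 12 h. They are therefore called foot-higher rather than foot-specific here. In pools of whole tips, fewer cells of a type and less RNA per cell cannot be told apart.

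The foot-head difference was already above 0 for 21 of the 26 members at 0 h, against 47.3% of all gene models tested. Its median over the members was 0.52 (range -0.13 to 0.98). Foot libraries all lay above head libraries in 15 of them at 0 h, against 7.44% of all gene models tested, and this count is a description since the 0 h libraries entered the rule. By the rule the difference passed 1 at 8 h, where its median was 1.18 (range 1.00 to 1.74), and at 12 h, where its median was 1.39 (range 1.00 to 2.83). The 3 foot libraries lay above the 3 head libraries in 25 members at 8 h, where 9.1% of all gene models tested did, and in 24 members at 12 h, where 7.41% did.

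**Figure D1:**
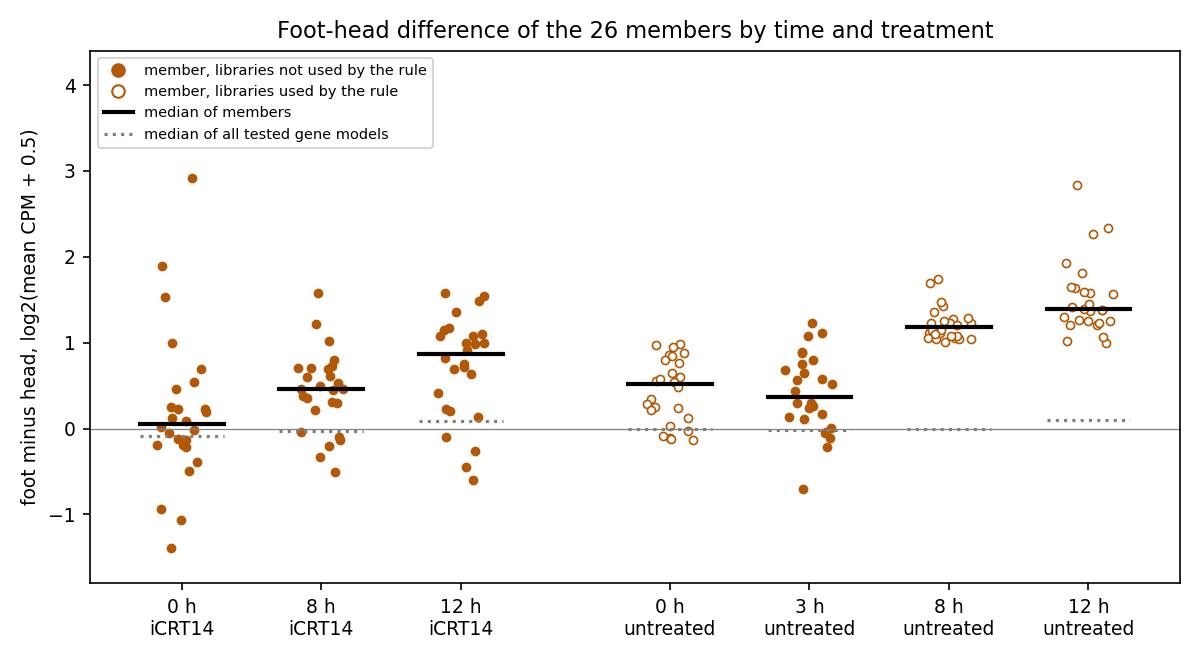
Foot minus head difference (log2 of mean CPM plus 0.5) of each of the 26 members at 0, 8 and 12 h in iCRT14 and at 0, 3, 8 and 12 h untreated. Each point is a member, open where the rule used the libraries and filled where it did not, the black bar is the median of the members (0.05, 0.46 and 0.87 in iCRT14, and 0.52, 0.37, 1.18 and 1.39 untreated), and the dotted line is the median of all gene models tested.

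Most members changed less than 2-fold from 0 h to 8 h on each side. Relative to 0 h, 13 members lay higher in the foot and lower in the head at 8 h, 6 lay higher on both sides and 7 lay lower on both. Among the 15635 gene models with the minimum CPM, these counts were 1689 (10.8%), 4265 and 8356. In the foot, 3 members (11.5%) were at least 2-fold higher at 8 h than at 0 h, against 0.737% of all gene models tested. In the head, 5 (19.2%) were at least 2-fold lower at 8 h than at 0 h, against 0.579%. The remaining 18 members did neither. The change was larger in size in the head than in the foot in 16 of 26 members at 8 h and in 20 of 26 at 12 h. The shares are 61.5% and 76.9% of the members, beside 52.7% and 66.7% of the 15635 gene models with the minimum CPM, so that larger changes in the head were common among all of these. At 12 h, 3 members were at least 2-fold above 0 h in the foot, against 1.65% of all gene models tested, 12 were at least 2-fold below 0 h in the head, against 14.2%, and 11 did neither. The rule used these libraries, and nothing is read from these counts. Median changes from 0 h were 0.16 in the foot and -0.40 in the head at 8 h, and -0.04 in the foot and -0.92 in the head at 12 h.

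The 12 h values need the change of kit to be kept in view. On this scale the median of all gene models tested also lay lower at 12 h than at 0 h, by -0.22 in the foot and -0.32 in the head. After TMM scaling of the library sizes, which brings the medians of all gene models to 0.01 in the foot and -0.01 in the head, the members' medians were 0.21 in the foot and -0.60 in the head. The sign of the foot's median change at 12 h thus depended on the scaling, and time and kit cannot be told apart in this comparison.

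The members with the highest CPM, a value not scaled for transcript length, were g31252 and g21006, and they behaved differently. g31252 had 442, 393 and 415 CPM in the 8 h foot, against 245, 188 and 189 CPM in the 8 h head. At 0 h it had 266, 276 and 302 CPM in the foot, against 153, 156 and 161 CPM in the head. The foot was thus the higher side before any regeneration, and the 8 h difference of 1.00 followed a 0 h difference of 0.84.

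g21006 had 155, 149 and 126 CPM in the 8 h foot, against 47.3, 62.5 and 56.8 CPM in the 8 h head. At 0 h it had 142, 137 and 139 CPM in the foot, against 152, 138 and 154 CPM in the head, and the sides overlapped. The foot libraries at 8 h thus spanned the 0 h level while all head libraries lay below it.

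The largest differences at 12 h belonged to g24936 and g12371. g24936 had 7.22, 17.9 and 7.40 CPM in the foot at 12 h, against 1.62, 0.975 and 0.694 CPM in the head, a difference of 2.83. At 0 h it had 15.8, 14.4 and 14.7 CPM in the foot and 18.1, 15.0 and 16.0 CPM in the head, so that the 12 h foot libraries lay on both sides of their 0 h level and the 12 h head libraries far below theirs. g12371 had 10.6, 11.8 and 12.1 CPM in the 12 h foot, against 1.96, 1.58 and 2.08 CPM in the 12 h head, a difference of 2.34. Its 0 h libraries had 9.98, 8.74 and 8.18 CPM in the foot and 7.16, 4.31 and 6.0 CPM in the head.

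**Figure D2:**
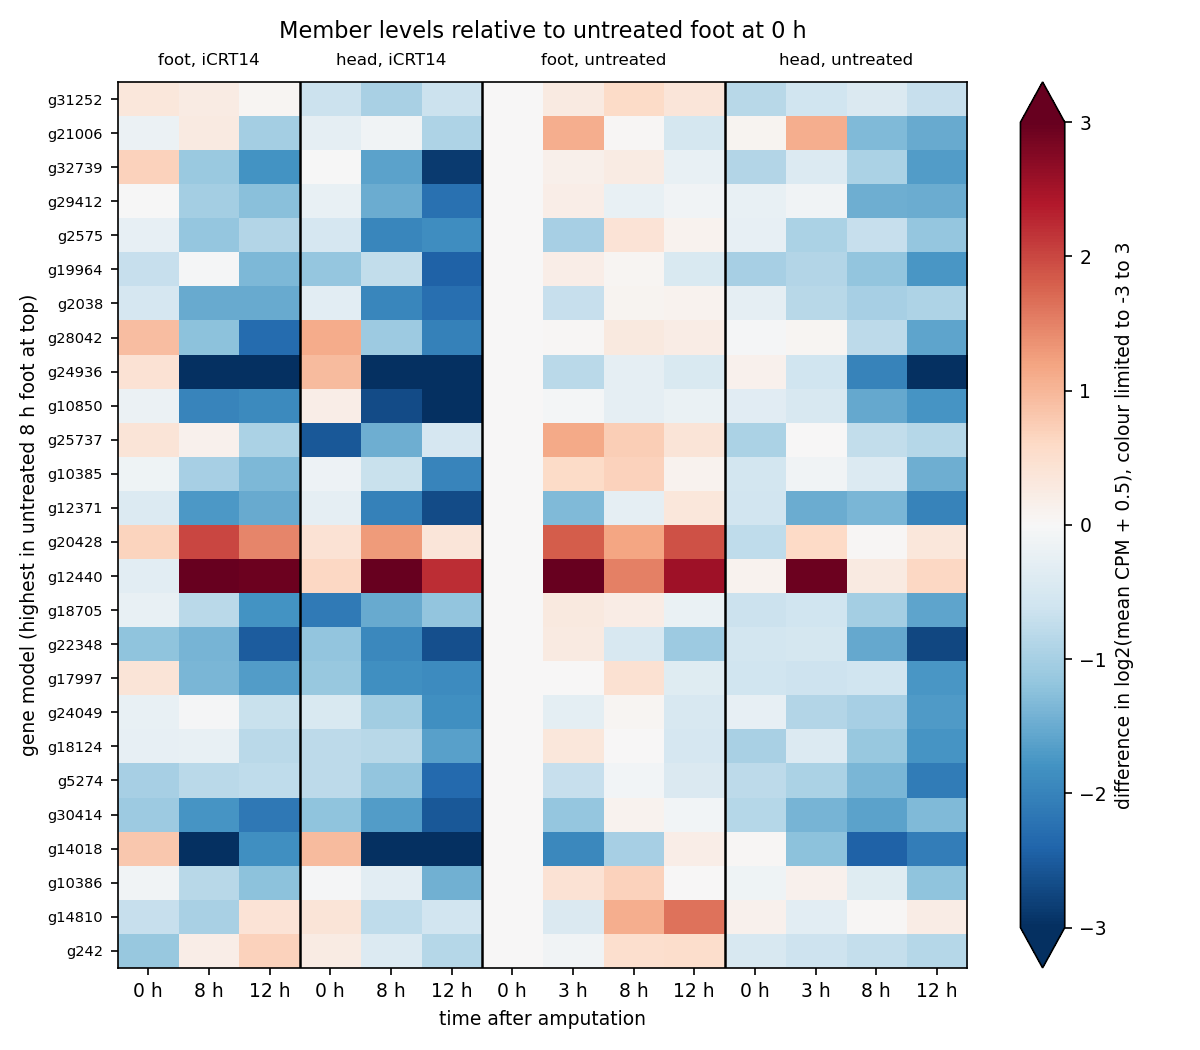
Level of the 26 members in each group relative to the untreated 0 h foot, as a difference in log2 of mean CPM plus 0.5 with the colour limited to -3 to 3. Rows are gene models ordered by CPM in the untreated 8 h foot, and columns are times within foot in iCRT14, head in iCRT14, foot untreated and head untreated. Most rows are near white in the untreated foot and blue in the 8 h and 12 h head columns, and g12440 stands out as red at 3 h untreated on both sides and at 8 and 12 h in iCRT14.

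The threshold cut through a continuum. Just inside it at 8 h were g31252 (1.00) and g22348 (1.04), and just outside, with every other condition met, were g5862 (0.97) and g5735 (0.96). Dropping the 0 h condition would have given 65 gene models in place of 26. Of the 26, 12 kept their place whichever single library was left out, and the number of members then ran from 19, without replicate 2 of the untreated 8 h head, to 30.

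The 3 h libraries played no part in the choice. Several members moved sharply on both sides at once between 0 h and 3 h. The foot-head difference had a median of 0.37 at 3 h, against 0.52 at 0 h, and lay above 0 for 21 of 26 members at either time. Of all gene models tested, 45.8% had a difference above 0 at 3 h and 47.3% at 0 h. Since the rule had limited the 0 h difference, its change between 0 h and 3 h is given without a test. All 3 foot libraries lay above all 3 head libraries in 14 members, against 7.65% of all gene models tested, and below them in 0, against 9.35%.

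In edgeR's quasi-likelihood test with Benjamini-Hochberg adjustment over all 20894 gene models tested, 3 members were higher in the foot at 3 h, where 0.407% of all gene models were called, and 0 were lower, where 0.297% were called. Unadjusted p-values fell below 0.05 for 11 members higher and 1 lower in the foot, beside 842 of all 20894 gene models in either direction. DESeq2 called 4 higher and 0 lower. The median log2 fold change of the members was 0.44, beside 0.00163 over all gene models tested. In every fit that left out 1 of these 6 libraries, 2 members were called as higher in the foot.

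g19964 had 18.5, 20.3 and 21.3 CPM in the 3 h foot, against 7.74, 9.50 and 10.5 CPM in the 3 h head. The sides did not overlap, and the log2 fold change was 1.13 (SE 0.15, adjusted p = 6.53e-06, edgeR). g31252 had 335, 335 and 351 CPM in the 3 h foot, against 178, 178 and 199 CPM in the 3 h head, a log2 fold change of 0.90 (SE 0.13, adjusted p = 2.43e-05, edgeR). The remaining call was g22348, with 9.15, 9.38 and 9.86 CPM in the foot and 4.32, 5.81 and 5.60 CPM in the head (log2 fold change 0.87, SE 0.21, adjusted p = 0.028, edgeR).

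These 3 had 0 h differences of 0.98 (g19964), 0.84 (g31252) and 0.54 (g22348). The count of members higher in the foot depended on which libraries set the spread. With only the 18 TruSeq libraries in the fit it was 9, beside 1.86% of all gene models, and with only the 6 libraries compared it was 11, beside 2.54%.

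Within a side, 9 of the 26 members changed between 0 h and 3 h in the foot, and 5 in the head, all of which had also changed in the foot and in the same direction. In the foot 3 rose, where 3.16% of all gene models rose, and 6 fell, where 1.49% fell (edgeR, adjusted p below 0.05). In the head 2 rose, where 2.72% of all gene models rose, and 3 fell, where 1.29% fell. The 0 h libraries of these tests had entered the rule through the limit on the foot-head difference, and the part of that limit in the counts was not tested. With the TruSeq libraries alone, 7 rose in the foot, where 8.76% of all gene models rose, and 6 rose and 6 fell in the head, where 7.77% rose and 7.09% fell.

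g12440 made the largest rise. It had 17.4, 15.2 and 20.0 CPM in the 3 h foot, against 0.928, 1.67 and 2.42 CPM in the 0 h foot, and 14.3, 19.1 and 15.1 CPM in the 3 h head, against 1.86, 2.59 and 1.10 CPM in the 0 h head. The 3 h libraries of both sides lay far above the 0 h ones, with log2 fold changes of 3.47 in the foot (SE 0.31, adjusted p = 8.06e-11) and 3.18 in the head in edgeR. At 8 h it had 4.60, 6.82 and 5.63 CPM in the foot, against 2.33, 1.91 and 2.15 CPM in the head. The side difference of this gene model thus appeared as the head returned to its 0 h range while the foot stayed above it.

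g21006 also rose on both sides at 3 h, at a higher level. It had 310.3, 291 and 296 CPM in the 3 h foot, against 142, 137 and 139 CPM in the 0 h foot, and 317, 304 and 268 CPM in the 3 h head, against 152, 138 and 154 CPM in the 0 h head. Both sides rose together, with log2 fold changes of 1.16 in the foot and 1.05 in the head (edgeR). Its course then differed from that of g12440, since at 8 h its foot libraries spanned the 0 h level and its head libraries lay below theirs. g20428 had 11.2, 11.5 and 7.83 CPM in the 3 h foot, against 1.95, 3.28 and 2.36 CPM in the 0 h foot. Its log2 fold change was 2.07 (SE 0.58, adjusted p = 0.0271, edgeR), and the call was lost in 5 of the 6 fits that left out 1 of these libraries (1.91 to 2.31).

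The largest falls at 3 h were those of g14018 and g30414 in the foot and of g14018 and g12371 in the head. g14018 had 1.52, 0.848 and 0.676 CPM in the 3 h foot, against 6.41, 4.62 and 4.78 CPM in the 0 h foot (log2 fold change -2.31, SE 0.38, adjusted p = 4.3e-05, edgeR). In the head it had 2.29, 2.12 and 1.47 CPM at 3 h, against 6.52, 4.57 and 5.03 CPM at 0 h. That log2 fold change was -1.40, and the call was lost without replicate 1 of the 0 h head (-1.24) or replicate 3 of the 3 h head (-1.24). At 3 h the foot-head difference of g14018 was -0.70, but the sides overlapped and the difference was not called (adjusted p = 0.94, edgeR).

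g30414 had 0.974, 1.07 and 1.01 CPM in the 3 h foot, against 2.46, 2.84 and 3.40 CPM in the 0 h foot (log2 fold change -1.44, SE 0.32, adjusted p = 0.00326, edgeR). g12371 had 2.81, 2.79 and 2.94 CPM in the 3 h head, against 7.16, 4.31 and 6.0 CPM in the 0 h head, a log2 fold change of -0.99, and in the foot its log2 fold change was -1.40. The other members that fell in the foot were g2575 (-1.0), g24936 (-0.79) and g2038 (-0.65), all log2 fold changes from edgeR. g2575 also fell in the head (-0.69).

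After 3 h the 6 members that fell in the foot differed by side. In the foot, all 3 libraries at 8 h lay above all 3 at 3 h in each of the 6, against 10.5% of all gene models tested. In the head 0 of the 6 did so, against 8.69%, and 2 had all 8 h libraries below the 3 h ones, against 18.3%. The head's 8 h libraries lay below its 0 h ones in all 6, against 25.8%. The foot's 8 h libraries lay below its 0 h ones in 3 of the 6, against 26.6%, and above them in 1, against 12.2%. For g2575 the foot had 20.4, 18.8 and 20.7 CPM at 8 h, against 6.66, 7.86 and 7.04 CPM at 3 h, and the head had 10.8, 7.37 and 8.95 CPM at 8 h, against 6.56, 7.43 and 8.43 CPM at 3 h. The 6 were picked for low values in the same 3 h foot libraries, and the 8 h libraries chose the members, so these counts are a description from which nothing is read.

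**Figure D3:**
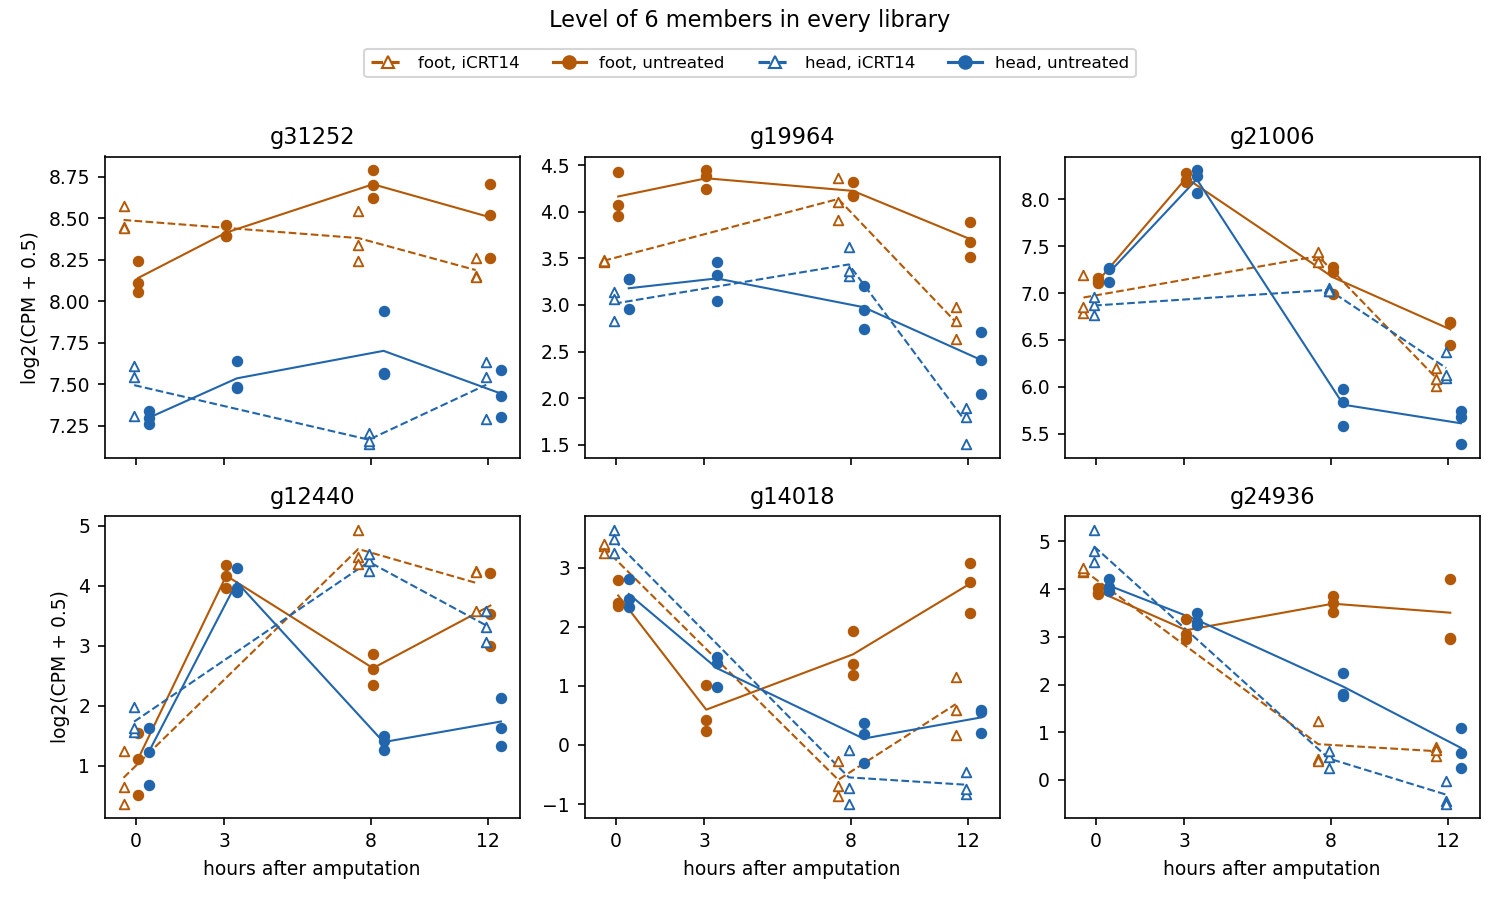
Levels of 6 members, as log2 of CPM plus 0.5, in every library against hours after amputation, with each gene model on its own axis. Triangles with dashed lines are iCRT14 libraries, filled circles with solid lines are untreated libraries, orange is foot and blue is head, and lines join group means. g31252 and g19964 are higher in the foot at every time and treatment, g21006 and g12440 peak on both untreated sides at 3 h, and g14018 and g24936 dip at 3 h, after which they lie higher in the untreated foot and lower in the untreated head.

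The iCRT14 libraries also took no part in the choice, and foot and head regenerates in iCRT14 were compared at each time. At least 2-fold more RNA in the foot, the size the rule asks for untreated, was found in iCRT14 in 3 of the 26 members at 8 h, against 0.474% of all gene models tested, and in 9 at 12 h, against 0.9%. The median foot-head difference in iCRT14 was 0.05 at 0 h, 0.46 at 8 h and 0.87 at 12 h, and 14, 20 and 22 of the 26 members lay above 0. Beside these counts, 41%, 45.1% and 61.5% of all gene models tested lay above 0. All 3 foot libraries lay above all 3 head libraries in 8 members at 0 h, against 14.1% of all gene models tested, in 6 at 8 h, against 4.08%, and in 16 at 12 h, against 15.4%. They lay below in 5 members at 0 h, against 24.4%, in 0 at 8 h, against 6.1%, and in 0 at 12 h, against 6.79%.

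At 12 h in iCRT14, 14 members were higher in the foot, where 1.67% of all gene models were called, and 0 were lower, where 2.35% were called (edgeR). By unadjusted p below 0.05, 18 were higher and 1 was lower, beside 4453 of all 20894 gene models in either direction. DESeq2 called 12 higher and 0 lower. The called log2 fold changes ran from 0.62 (g31252) to 2.67 (g14018), and the median over the 26 was 0.99, beside 0.04 over all gene models tested. Fewer members were called in fits that held KAPA libraries only, 7 with all of these (0.43% of all gene models) and 5 with the 6 libraries compared alone (0.551%). Without replicate 3 of the 12 h iCRT14 foot or replicate 1 of the 12 h iCRT14 head the count was 9.

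g14018 had 1.71, 1.00 and 0.629 CPM in the 12 h iCRT14 foot, against 0.0600, 0.0960 and 0.227 CPM in the 12 h iCRT14 head. The sides did not overlap, but the head values were 1, 2 and 10 counts, and both sides were far below the 12 h untreated foot with 6.28, 7.96 and 4.18 CPM. The log2 fold change of foot over head was 2.67 (SE 0.54, adjusted p = 0.00258, edgeR). The call was lost in the fit of these 6 libraries alone (2.75).

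g242 had 1.91, 1.67 and 1.63 CPM in the 12 h iCRT14 foot, against 0, 0.146 and 0.652 CPM in the 12 h iCRT14 head, where the library at 0 was at or under a floor of 3 counts. Its log2 fold change was 2.35 (SE 0.67, adjusted p = 0.0407, edgeR), and the call was lost in 5 of the 6 fits that left out 1 of these libraries (1.92 to 2.38). The table gives part of a count for this gene model in many libraries, so that it shares reads with another one. Parts of counts also occurred for g12440, g19964, g24936 and g31252 in some libraries or most.

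At 8 h in iCRT14, 4 members were higher in the foot, where 0.632% of all gene models were called, and 0 were lower, where 0.402% were called (edgeR). All 4 were also among the 14 called at 12 h. At an unadjusted p below 0.05 the counts were 12 higher and 0 lower, beside 2094 of all 20894 gene models in either direction. DESeq2 called 6 higher and 0 lower. The count was 2 with library size alone as the scaling, 2 with the KAPA libraries alone (0.255% of all gene models), 1 with the 6 libraries compared alone (0.153%), and 2 without replicate 1 of the 8 h iCRT14 head.

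Among the 4, g31252 had 302, 323 and 372 CPM in the 8 h iCRT14 foot, against 147, 140.2 and 142 CPM in the head (log2 fold change 1.26, SE 0.13, adjusted p = 4.32e-08, edgeR). g24049 had 4.64, 3.13 and 3.25 CPM in the 8 h iCRT14 foot, against 0.806, 2.14 and 1.73 CPM in the head, without overlap. Its log2 fold change was 1.28 (SE 0.32, adjusted p = 0.0395, edgeR), a call that was lost in 3 of the 6 fits without 1 library (0.97 to 1.35). The other 2 were g2575 (0.93) and g19964 (0.76).

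At 0 h in iCRT14, after 2 h in the inhibitor and with no time for regeneration, 6 members were higher in the foot, where 8.18% of all gene models were called, and 3 were lower, where 9.06% were called (edgeR). These calls depended on which libraries set the spread. With only the 6 libraries compared, 14.1% of all gene models were called higher in the foot and 14.6% lower. With the KAPA libraries alone 1 member was higher (0.255% of all gene models) and 0 were lower (0.34%), and without replicate 1 of the 0 h iCRT14 foot 0 were lower.

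Only g31252 and g19964 had all 3 foot libraries above all 3 head libraries at each of the 7 combinations of time and treatment, and 3 further members did so at 6 of the 7. For g19964 the lowest contrast was at 0 h in iCRT14, with 10.5, 10.7 and 10.6 CPM in the foot, against 6.60, 8.29 and 7.85 CPM in the head. At 12 h in iCRT14 it had 6.60, 5.70 and 7.37 CPM in the foot, against 2.34, 3.21 and 2.97 CPM in the head.

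Most members lost RNA over time on both sides when the inhibitor was present. In iCRT14, 17 of the 26 fell in the foot from 0 h to 12 h, where 18.8% of all gene models fell, and 3 rose, where 18% rose (edgeR). In the head, 18 fell, where 20% of all gene models fell, and 3 rose, where 17.6% rose. The median log2 fold change of the members was -1.22 in the foot and -1.74 in the head, beside 0.03 and -0.02 over all gene models tested. All libraries of these comparisons were of the KAPA kit.

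g24936 showed the largest of these falls on both sides. In the foot it had 1.11, 0.911 and 1.03 CPM at 12 h in iCRT14, against 20.1, 20.4 and 21.2 CPM at 0 h in iCRT14 (log2 fold change -4.28, SE 0.28, adjusted p = 1.13e-14, edgeR). In the head it had 0.240, 0.480 and 0.204 CPM at 12 h, against 23.0, 37.3 and 27.4 CPM at 0 h (log2 fold change -6.42, SE 0.33, adjusted p = 5.73e-18, edgeR). g12440 rose, with 11.5, 18.4 and 18.3 CPM in the foot at 12 h against 0.784, 1.06 and 1.88 CPM at 0 h, a log2 fold change of 3.75 (SE 0.32, adjusted p = 7.06e-12, edgeR). The other members that rose were g242 and g14810 in the foot and g25737 and g18705 in the head. Both foot rises started near the floor of 3 counts. In the 0 h iCRT14 foot g242 had 1.33, 0 and 6.58 counts, and g14810 had 0, 0.370 and 0.193 CPM.

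Whether iCRT14 raises these gene models in head regenerates was asked at 12 h, where both treatments shared the KAPA kit. Since the untreated 12 h libraries had chosen the members, the test was made on the 45 gene models that met the 0 h and 8 h conditions with no condition at 12 h, called the 8 h list. It holds the 26 members and 19 others. In head regenerates at 12 h, 3 of the 45 were higher in iCRT14 and 14 were lower (edgeR), which is 6.67% and 31.1% of the list, where 6.83% and 7.91% of all gene models were called. The median log2 fold change of iCRT14 over untreated was -0.32, beside 0.00445 over all gene models tested, and 29 of the 45 lay below 0.

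The 3 that were higher in the treated head were g13842, g12440 and g21006. g12440 had 7.86, 9.48 and 11.5 CPM in the 12 h iCRT14 head, against 3.88, 2.60 and 2.03 CPM in the 12 h untreated head (log2 fold change 1.83, SE 0.28, adjusted p = 8.89e-06, edgeR). g21006 had 67.6, 69.2 and 82.1 CPM in the iCRT14 head, against 41.2, 53.1 and 50.6 CPM in the untreated head (log2 fold change 0.66, SE 0.11, adjusted p = 4.16e-05, edgeR). In both, all treated libraries lay above all untreated ones. These are the members called as risen on both sides at 3 h in the fit of all 42 libraries. All 3 h libraries of g10385, g20428, g25737 and g31252 also lay above the 0 h ones on both sides. None of these was called in the treated head at 12 h.

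g13842, which is in the 8 h list but no member, had 2.14, 1.57 and 1.10 CPM in the 12 h iCRT14 head, against 0.442, 0.428 and 0.0891 CPM in the untreated head (log2 fold change 2.33, SE 0.56, adjusted p = 0.00296, edgeR). Its values include parts of counts, so that it shares reads with another gene model. The call was lost in the fit of the 6 libraries compared alone (2.34).

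The 14 that were lower in the treated head comprised 12 members and 2 others. g30414 had 0.0600, 0.0960 and 0.0906 CPM in the 12 h iCRT14 head, which are 1, 2 and 4 counts, against 0.786, 1.02 and 0.747 CPM in the untreated head, which are 18, 22 and 14 counts. Its log2 fold change was -3.18 (SE 0.45, adjusted p = 1.99e-06, edgeR). g14018 had 0.0600, 0.0960 and 0.227 CPM in the 12 h iCRT14 head, against 0.655, 0.975 and 1.01 CPM in the untreated head, a log2 fold change of -2.41 (SE 0.55, adjusted p = 0.00167, edgeR). The fit of the 6 libraries compared alone called 1 higher (2.11% of all gene models) and 6 lower (1.42%), and g14018 was not among the calls (-2.49). DESeq2 called 3 higher and 14 lower.

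**Figure D4:**
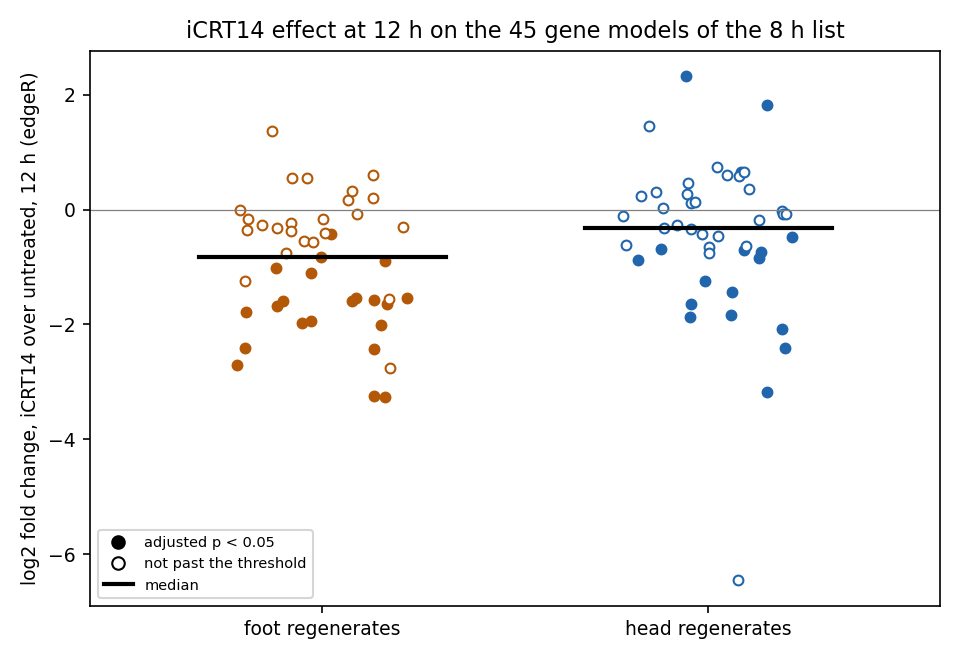
Log2 fold change of iCRT14 over untreated at 12 h (edgeR) for the 45 gene models of the 8 h list, in foot regenerates on the left and head regenerates on the right. Filled points had an adjusted p below 0.05, open points did not, and the bar is the median (-0.83 in the foot and -0.32 in the head). The 21 filled points of the foot all lie below 0, while the head has 14 below and 3 above.

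The same gene models were lower in the treated foot, and more of them. In foot regenerates at 12 h, 21 of the 45 were lower in iCRT14, where 9.99% of all gene models were called, and 0 were higher, where 9.86% were called (edgeR). At an unadjusted p below 0.05 the counts were 23 lower and 1 higher, beside 6583 of all 20894 gene models in either direction. DESeq2 called 21 lower and 0 higher. All 14 that were lower in the treated head were among the 21, and the remaining 7 were lower in the treated foot without a call in the head. The median log2 fold change in the foot was -0.83, beside -0.02 over all gene models tested. For g24936 the foot had 1.11, 0.911 and 1.03 CPM in iCRT14, against 7.22, 17.9 and 7.40 CPM untreated (log2 fold change -3.27, SE 0.29, adjusted p = 4.45e-11, edgeR).

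A test of the inhibitor's effect on the foot-head difference at 12 h called 4 of the 45 as more negative in iCRT14, where 0.105% of all gene models were called, and 0 as more positive, where 0.517% were called (edgeR). By unadjusted p below 0.05, 10 were more negative and 0 more positive, beside 2217 of all 20894 gene models in either direction. DESeq2 called 5 and 0. For g21006 the foot in iCRT14 had 73.1, 64.0 and 67.1 CPM, against 103, 102 and 86.6 CPM untreated, while its head values rose as given above. The sides then overlapped in iCRT14, and the difference of differences was -1.08 (SE 0.16, adjusted p = 6.56e-05, edgeR). With the KAPA libraries alone 2 were called (0.03% of all gene models), and with the 12 libraries compared alone 1 (0.0163%).

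Among the 26 members themselves, as a description, the 12 h head values in iCRT14 minus untreated had a median of -0.34. They lay above 0 in 8 of 26, against 44.2% of all gene models tested. All 3 treated libraries lay above all 3 untreated ones in 2 members, against 9.37% of all gene models tested, and below them in 12, against 13.2%. At 8 h the median was -0.35, with 4 members above without overlap, against 19.4% of all gene models tested, and 10 below, against 28.1%. Treatment and kit cannot be told apart at 8 h.

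The 8 h and 12 h conditions were also set against each other. Of the 45 gene models of the 8 h list, 27 were higher in the foot at 12 h and 0 were lower (edgeR). Of all gene models, 2.49% were called in each direction. The 27 comprised 23 members and 4 of the 19 others. The rule had split the list by these same 12 h libraries, so nothing is read from that division. Without adjustment, 36 had a p below 0.05 and were higher and 0 were lower, beside 3951 of all 20894 gene models in either direction. DESeq2 called 28 and 0. The fit of the 6 libraries compared alone called 10, where it called 0.248% of all gene models. The corresponding 12 h list, chosen with no condition at 8 h and the minimum level set in the 12 h foot, held 248 gene models. The 26 members were the overlap, 57.8% of the 8 h list and 10.5% of the 12 h list.

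At 8 h, 30 of the 248 were higher in the foot, where 0.794% of all gene models were called, and 0 were lower, where 1.22% were called (edgeR). By unadjusted p below 0.05, 83 were higher and 0 lower, beside 1407 of all 20894 gene models in either direction. DESeq2 called 36 and 0. With the TruSeq libraries alone, 102 of the 248 were higher in the foot at 8 h, where 3.19% of all gene models were called.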

How the data were processed

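RNA-seq was made from pooled regenerating tips of Hydra. The deposited RNA-seq table holds estimated counts per gene model. Per the submitters' processing notes, the tools named are Trimmomatic 0.36, RSEM 1.2.31 and Bowtie2, without their settings. The annotation, genome build and use of strand are not given in the sources used here. Estimated counts share out reads that match several gene models, so values of near-identical copies and of overlapping models are uncertain. In all, 24.8% of the values were not whole, and all were rounded for the tests. The ATAC-seq tables of the series are not used here.

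CPM was computed from the deposited counts and each library's total. Tests used edgeR 4.0.16 in R 4.3.3: filterByExpr, which kept 20894 gene models, all 26 members and all 45 and 248 of the lists among them, TMM scaling (factors 0.833 to 1.186), and a quasi-likelihood fit of all 42 libraries with 1 mean per group. P-values were two-sided and adjusted by Benjamini-Hochberg over all gene models tested, with calls below 0.05. A standard error (SE) was taken as the log2 fold change divided by the root of the F statistic. The fit was tried on simulated data for foot against head at 3 h only. All gene models and libraries had the same spread there, so that the contrasts of KAPA libraries were not covered. Library groups came from the sample titles, and no column was left unused.

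Gene models were named by rule: the 2 highest in the untreated 8 h foot, the 2 with the largest 12 h difference, the 2 nearest each side of the 8 h threshold, and for most tests up to 2 called in each direction with the largest change and no overlap of libraries. Any other name was chosen after its values were seen. The members and lists were chosen with earlier results of these data known.

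Between replicates, chi-square per degree of freedom of their counts was at least 2.53, so none was treated as a repeated library. Replicate numbers were not used to pair the libraries in the main fit, since in 0 of 13 pairs of groups was the correlation of deviations over 0.1 for every number. That limit cannot exclude a weaker pairing. In 3 of the 13 pairs, all of iCRT14 groups, all 6 libraries matched best with their own number. Alternatives were library size alone, DESeq2 1.42.0 and its size factors, no low-count filter, libraries of one kit, only the groups compared, a replicate block, other pseudocounts and minimum levels, and leaving out each library in turn. DESeq2, like the main fit, took all 42 libraries of both kits together. Counts from DESeq2, from library size alone and from fits without 1 library are given without the share of all gene models called. They show only how far the counts moved.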

Additional observations from a re-analysis of the deposited data

Results flagged for a closer look

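At 12 h the effect of iCRT14 differed between foot and head regenerates for 4 gene models of the 8 h list, by a test of the difference of differences in edgeR with adjustment over all gene models tested. For g13842, no member, the foot-head difference was more negative in iCRT14 by a log2 value of -3.56 (SE 0.80, adjusted p = 0.0225). It had 0.527, 0.453 and 0.241 CPM in the iCRT14 foot and 0.831, 0.652 and 1.46 CPM in the untreated foot, with its head values as given above.

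The value was -2.23 (SE 0.23, adjusted p = 9.52e-08) for g28042. This member had 2.38, 1.32 and 2.11 CPM in the iCRT14 foot and 11.9, 17.9 and 10.7 CPM in the untreated foot, beside 2.70, 2.40 and 2.18 CPM in the iCRT14 head and 3.36, 4.04 and 3.04 CPM in the untreated head. For g22348 it was -1.91 (SE 0.37, adjusted p = 0.00472), with 0.669, 0.957 and 1.30 CPM in the iCRT14 foot and 2.76, 3.50 and 3.94 CPM in the untreated foot, beside 0.540, 1.01 and 0.974 CPM in the iCRT14 head and 0.917, 0.743 and 0.587 CPM in the untreated head. For g21006 it was -1.08 (adjusted p = 6.56e-05), as described. The last 3 are members, and the untreated 12 h libraries that enter this test chose the members, though not the 8 h list in which the test was made.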

How the results depend on the processing

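The members' median foot change from 0 h to 12 h, -0.04, took the opposite sign with TMM scaling (0.21) and in some fits without 1 library (-0.11 to 0.07). Counts follow for libraries of the same kit, only the groups compared, and the replicate block, with the share of all gene models called in brackets. Members higher in the foot at 3 h numbered 9 (1.86%), 11 (2.54%) and 11 (2.99%). From 0 h to 3 h, 7 (8.76%), 7 (10.4%) and 8 (9.52%) rose in the foot. In the head, 6 (7.77%), 7 (8.8%) and 8 (10.2%) rose, and 6 (7.09%), 6 (8.6%) and 6 (10.1%) fell. In iCRT14, members higher in the foot numbered 2 (0.255%), 1 (0.153%) and 0 (0.0383%) at 8 h. At 12 h in iCRT14 they numbered 7 (0.43%), 5 (0.551%) and 7 (0.975%). In the same order, the 12 h list had 102 (3.19%), 91 (2.66%) and 107 (3.21%) higher in the foot at 8 h. The 12 h foot-head difference was more negative in iCRT14 in 2 (0.03%), 1 (0.0163%) and 0 (0.00542%) of the 8 h list. With only the groups compared and with the block, 10 (0.248%) and 1 (0.0472%) of the 8 h list were higher in the foot at 12 h. In the head at 12 h, 1 (2.11%) and 1 (2.08%) were higher and 6 (1.42%) and 3 (1.14%) lower in iCRT14. In the foot 1 (7.68%) was higher in iCRT14 with the block. With the same kit, 1 member (0.255%) was higher and 0 (0.34%) were lower in the foot at 0 h in iCRT14. With library size alone, 2 members were higher in the foot at 8 h in iCRT14. The block changed no other call by more than 1.5 times. In 3 of 13 pairs of groups all 6 libraries matched best with their own number, a hint from the data, not the design.

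The members' median difference between iCRT14 and untreated head was 0.32 with TMM scaling at 0 h and -0.57 with a pseudocount of 0.1 at 12 h. Their median change at 8 h in the foot was 0.26 with TMM scaling, and at 12 h in the head -0.60 with TMM scaling, -1.10 with a pseudocount of 0.1 and -0.76 with 1. Without 1 library, members that fell in the head at 3 h numbered 1 to 2, those lower in the foot in iCRT14 at 0 h 0 to 3, those higher in the foot in iCRT14 2 to 5 at 8 h and 9 to 13 at 12 h, and those of the 8 h list higher in the treated 12 h foot 0 to 1. The median difference in the head ran from 0.033 to 0.20 at 0 h and from -0.58 to -0.24 at 12 h, and the median head change at 12 h from -1.05 to -0.78. The number of members was 38 with a pseudocount of 0.1 and 21 with 1. Depth limits the lowest members: 10 of 26 averaged under 1 CPM in some untreated group.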
